A study of Rattus norvegicus with 28 samples.

Results

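The genes described here are those of the potassium channel family, chosen by name: every gene whose array name starts with Kcn, which is the prefix given to pore-forming and auxiliary subunits of potassium channels. They were 88 of the 35469 genes and transcripts on the array and were read by 104 of its 41012 probes, with 75 genes read by a single probe. The microarray measured RNA from whole spinal cord of adult female Sprague Dawley rats after a severe contusion of 250 kdyn at the eighth thoracic vertebra, and each of 7 groups had 4 arrays. The T0 cords were uninjured by the study's methods and are called sham in the labels. T1, T2, T4 and T8 were injured cords collected 1, 2, 4 and 8 weeks after the contusion. T1_NPC cords received neural progenitor cells (NPCs) directly after the injury and were collected at 1 week, while T2_NPC cords received them 1 week after the injury and were collected at 2 weeks. By the study's methods, injured control animals received an equal volume of medium without cells. The NPCs were cultured as neurospheres from the cords of other adult rats that had been injured (termed injury-activated), and the piece of cord taken was about 1.5 cm long, held the lesion centre and excluded the dura. Surgery comprised morphine, isoflurane and a laminectomy. The protocol, worded once for the whole series, adds the immunosuppressant FK-506 from the day before transplantation until the end. Whether every injured control received it is not certain from the labels. The study's methods list this drug (as tacrolimus) in the care after surgery of all animals. The labels name the replicates as separate samples without stating that each was a separate animal. The study's methods give 4 animals for the arrays of each injured and transplanted group, and its figure legend calls the replicates biological. The p-values measure the spread between these samples.

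Potassium channels let potassium leave or enter cells along its gradient, and so set the resting potential, repolarize action potentials and clear potassium that active neurons release. Voltage-gated (Kv) channels open on depolarization, and Kv1 channels flank the nodes of Ranvier along myelinated axons. Inward rectifiers (Kir) and two-pore-domain (K2P) channels hold the resting potential, with Kir4.1 (Kcnj10) best known for potassium uptake by astrocytes and oligodendrocytes. Calcium-activated channels couple calcium entry to hyperpolarization. Some Kcn genes of different families, such as Kcnn4, Kcna3 and Kcnk13, are best known from immune cells and microglia.

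Values are log2 signals that the authors had quantile normalized, so a difference of 1 is a doubling. Each array's number limits the precision of a group to 4 values. The labelled tissue held the defining markers of cord at high values. Of the array spots, 74.5% to 82.7% per array were well above background and none was saturated. Of the 88 genes, 59 were well above background on all 28 arrays, 24 on some and 5 (Kcna7, Kcnh8, Kcnj1, Kcnj15 and Kcnv2) on none, and for these 5 no fold is given.

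The authors' table and the deposited scanner outputs disagreed on the sample labels. The rank order of each column of the authors' table equalled that of exactly 1 scanner output, and for 16 of the 28 arrays this was an output deposited with a different sample. The results below rest on the authors' table, whose columns carry the sample names, and 12 arrays are undisputed. Each scanner output was also deposited under a sample. The labels do not state which assignment is right, and this was not tested. By the authors' table, limma called 6772 features higher and 8885 lower at T1 than in T0. With the scanner outputs grouped as they were deposited, limma called 0 of the 88 genes in any comparison of an injured group with T0 (3, 4, 28 and 13 passed an unadjusted p of 0.05 at T1, T2, T4 and T8), and among all features 0 or 1 passed in each. Slides and scan sessions mattered as well. With outputs assigned by rank order, the time-course arrays lay on 5 slides read in 2 scan sessions. Each of these sessions held all of T0, T1, T2, T4 and T8. Each transplanted group filled a slide of its own in the remaining session, so transplantation cannot be told apart from slide and session. Slide and session of the disputed arrays depend on this assignment. As deposited, each transplanted group also filled a slide of its own.

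Most potassium channel genes had less RNA after injury and a few had more. One week after the contusion 55 of the 88 genes were lower than in T0 and 7 were higher at an adjusted p under 0.05 (limma, Benjamini-Hochberg over all features), against a background of 25.1% lower and 19.1% higher among all features. Among the Kcn genes this was 62.5% lower and 7.95% higher. The T2 cords had 51 lower and 7 higher genes (background 22.2% and 17.7%) and the T4 cords 44 lower and 6 higher ones (background 21% and 17.5%), while in T8 cords 49 were lower and 8 higher (background 21.5% and 18.2%). The median log2 difference of the 88 genes from T0 was -0.86, -0.94, -0.70 and -0.74 at T1, T2, T4 and T8, while that of all features lay between -0.10 and -0.04. These 4 comparisons share the T0 arrays. In bulk tissue, fewer cells of a type and less RNA per cell cannot be told apart.

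The undisputed arrays of the time course were the 8 arrays of scan session 1. They held 2 arrays each of T0, T2 and T8 but 1 each of T1 and T4, and a test with a lone array assumes that its group varies like the others. A fit of the 12 undisputed arrays called 38 genes lower and 6 higher after 2 weeks and 45 and 8 after 8 weeks, while the lone T1 array gave 33 and 5 and the lone T4 array 30 and 7. Session 2 held the other 12 time-course arrays, with 2 or 3 per group and all of them disputed, and gave 52 lower and 6 higher after 1 week, 51 and 5 after 2 weeks, 47 and 6 after 4 weeks, and 45 and 7 after 8 weeks. Neuronal markers moved with the group of lower genes: all 11 measured neuron markers were lower at T1 and at T8, with a mean level of 13.48 to 13.88 in the T0 arrays, 11.65 to 12.54 at T1 and 11.61 to 12.12 at T8. Microglia and macrophage markers moved the other way, with 10 of 10 higher at T1 and a mean level of 9.64 to 9.86 in T0 and 12.50 to 13.08 at T1. Their part in the potassium channel results was not tested.

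**Figure D1:**
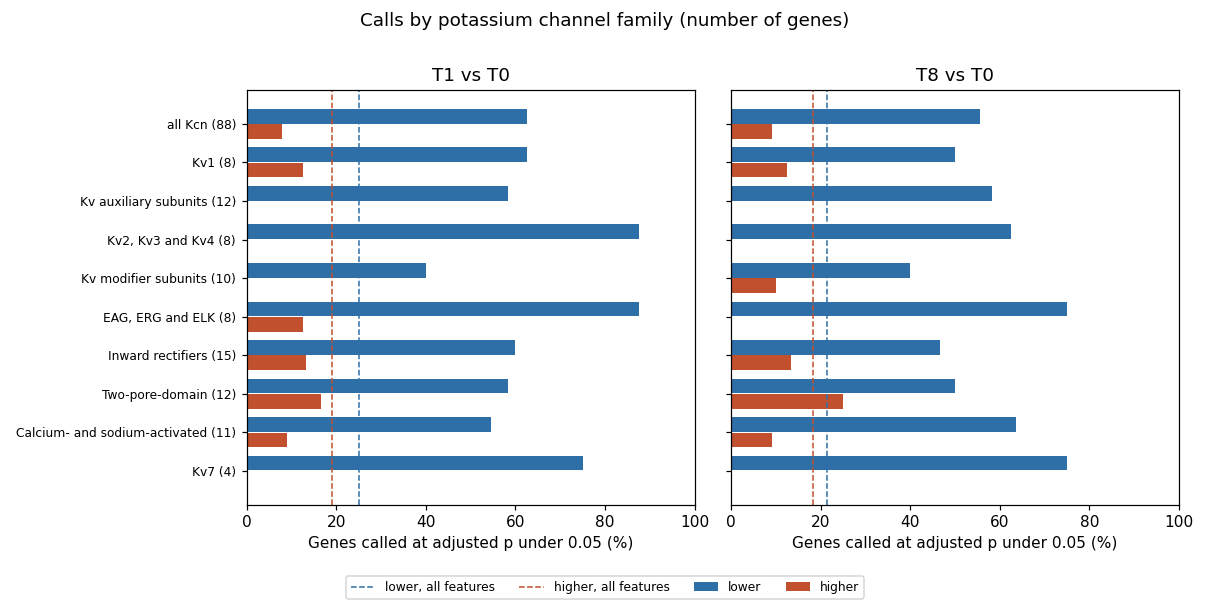
Share of genes in each potassium channel family (gene count in brackets) called lower (blue) or higher (red) than T0, in per cent, at T1 (left) and T8 (right). Dashed lines give the share of all features called in that direction, and the bar of all Kcn genes reaches 62.5% lower at T1 and 55.7% at T8.

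No family had more higher than lower genes at T1. At T1 genes were lower in the Kv1 family (5 of 8), Kv2, Kv3 and Kv4 together (7 of 8), the electrically silent Kv modifier subunits (4 of 10), the auxiliary subunits of Kv channels (7 of 12), the EAG, ERG and ELK channels (7 of 8, including Kcnh8, at background on every array), the inward rectifiers (9 of 15, including Kcnj1, likewise at background), the two-pore-domain channels (7 of 12), the calcium- and sodium-activated channels (6 of 11) and Kv7 (3 of 4). The 7 higher genes were Kcna3, Kcnh4, Kcnj5, Kcnj15, Kcnk6, Kcnk13 and Kcnn4, of which Kcnj15 was never above background. These are counts of small families, and no difference between families was tested.

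**Figure D2:**
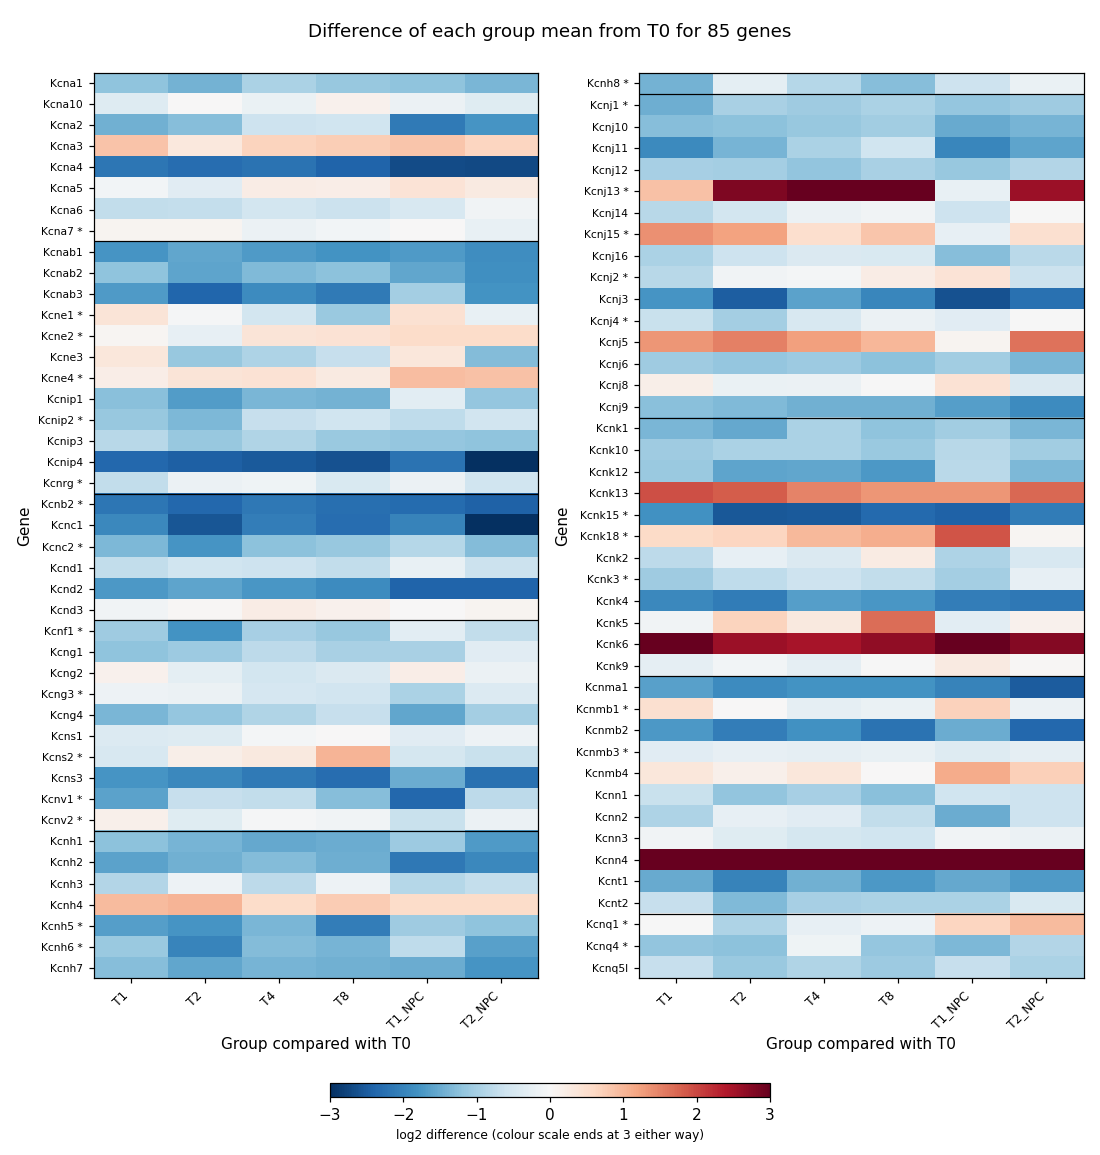
Mean log2 difference of 85 of the genes from T0 in the 6 injured groups, with families separated by lines and an asterisk on genes not well above background on all 28 arrays. Blue is lower and red higher than T0, colours end at 3 either way, and Kcnn4, Kcnk6, Kcnk13, Kcnj13 and Kcnj5 stand out in red among mostly blue rows.

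Among the voltage-gated channels, Kcna4 (Kv1.4, an inactivating neuronal channel) showed one of the deepest falls. Its log2 values were 9.38, 9.40, 9.40 and 9.13 in the T0 arrays, 7.45, 6.94, 7.77 and 6.43 at T1, and between 6.76 and 7.13 at T8. All T1 and T8 arrays lay below all T0 arrays. The difference from T0 was -2.18 at T1 (SE 0.31, adjusted p = 4.90e-06) and -2.40 at T8.

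Kcna1 and Kcna2 encode Kv1.1 and Kv1.2, which sit beside the nodes of myelinated axons. Kcna1 measured 15.35, 15.42, 14.92 and 15.42 in T0 and 14.32, 13.81, 14.55 and 13.60 at T1, without overlap, a fall of 1.21 on the log2 scale (SE 0.23, adjusted p = 1.47e-04) that was 1.13 at T8. A further probe that the array lists under a transcript name and not under Kcna1 differed by -1.41 at T1. Kcna2 measured 9.63, 8.97, 9.41 and 9.16 in T0 and 8.38, 7.63, 7.85 and 7.50 at T1, again without overlap, and differed by -1.45, -1.27, -0.61 and -0.60 from the first to the last time point. At T8 its arrays (8.57, 8.97, 8.39 and 8.83) reached the range of T0, and the adjusted p was 0.047.

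Kcna3 (Kv1.3), the Kv1 channel known from T cells and microglia, rose while its neighbours on the chromosome fell. Its values were 4.74, 4.64, 4.67 and 4.86 in T0, 6.03, 5.42, 5.09 and 5.84 at T1, 4.57, 5.45, 5.25 and 4.86 at T2, and 5.45, 5.29, 5.52 and 5.58 at T8. The T1 and T8 arrays all lay above T0, whereas T2 overlapped it. The difference was 0.87 at T1 (SE 0.18, adjusted p = 3.71e-04), 0.68 at T4 and 0.73 at T8, and 0.31 at T2, where the test was not passed. A further probe that the array describes as Kcna3 but lists under a transcript name (TC574813) was above background on all 28 arrays and differed by 0.53 at T1 (adjusted p = 0.03), 0.71 at T4 and 0.47 at T8, where it did not pass (adjusted p = 0.059). All 7 T cell markers and all 10 microglia and macrophage markers were higher at T1, and their part in this rise was not tested. Kcna3, Kcna2 and Kcna10 (a little-studied Kv1 channel, -0.38 at T1) follow each other on chromosome 2.

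The promoters of Kcna3 and Kcna2 are shown because these adjacent genes moved in opposite directions. Each sequence is the 250 bases before the annotated start in RefSeq (build GRCr8, + strand, chr2:197320074-197320323 for Kcna3 and chr2:197393280-197393529 for Kcna2), read 5′ to 3′, and capitals mark the letters GGGCGG, a GC box, on either strand.
Kcna3: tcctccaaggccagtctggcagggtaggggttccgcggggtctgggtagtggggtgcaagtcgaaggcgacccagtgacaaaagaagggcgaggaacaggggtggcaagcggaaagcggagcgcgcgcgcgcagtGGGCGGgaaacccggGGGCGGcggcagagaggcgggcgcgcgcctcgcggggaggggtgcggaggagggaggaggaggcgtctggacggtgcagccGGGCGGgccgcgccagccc
Kcna2: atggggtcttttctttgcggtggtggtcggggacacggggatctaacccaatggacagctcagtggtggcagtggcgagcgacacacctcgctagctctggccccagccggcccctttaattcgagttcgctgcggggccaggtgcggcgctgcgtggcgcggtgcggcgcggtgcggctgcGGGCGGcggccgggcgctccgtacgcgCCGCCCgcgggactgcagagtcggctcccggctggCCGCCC
Both hold 3 GC boxes, so this motif does not separate them. The box was present in 30.5% of all 33469 rat promoters of this length and in 29 of the 58 member promoters that matched by symbol (50%), of which 16 of 33 belonged to genes lower at T1 and 2 of 5 to genes higher at T1. For each member only the first promoter entry was read, while the shares of all promoters count every entry. The full cAMP response element TGACGTCA was in none of the 58 and in 1.59% of all promoters. The RE1 core CAGCACC, from the motif of the neuronal gene repressor REST, was in 3 of 58 (Kcnh5, Kcnh6 and Kcnj6, all lower at T1) and in 5.43% of all promoters. The letters GAGGAAGT, part of the motif of the myeloid factor PU.1, were in Kcnj2, Kcnj5 and Kcnj14 and in 2.04% of all. Both strands were read, and such matches describe letters only.

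The Kv2, Kv3 and Kv4 families hold the delayed rectifiers of neuron cell bodies, the channels of fast-spiking neurons and the A-type channels of dendrites. Kcnb2 (Kv2.2) measured 7.46, 7.57, 7.47 and 7.55 in T0 and 5.32, 5.18, 6.26 and 4.66 at T1, a difference of -2.16 (SE 0.40, adjusted p = 9.28e-05), with -2.25 at T8. Kcnc1 (Kv3.1) measured 10.97, 11.29, 10.83 and 11.28 in T0, 9.60, 9.03, 9.51 and 8.49 at T1 and 8.97, 8.39, 8.96 and 8.90 at T8, all below T0. It differed by -1.94 at T1 (SE 0.41), -2.57 at T2 and -2.29 at T8. The undisputed arrays, which hold a single T1 array, gave -1.30 at T1, and scan session 2 gave -2.28 (adjusted p = 7.58e-04).

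Kcnd2 (Kv4.2) fell by 1.71 at T1 (SE 0.23, adjusted p = 2.33e-06) and by 1.88 at T8, from 11.85, 12.18, 11.81 and 11.46 in T0 to 10.17, 9.83, 10.78 and 9.65 at T1. Kcnd3 (Kv4.3) differed by -0.09 at T1 and 0.12 at T8 and did not pass. The Kv4 partner Kcnip4 (KChIP4) had the deepest fall of the genes above background on every array at T1, T4 and T8. Its values were 10.47, 10.21, 10.20 and 10.07 in T0 and 8.23, 7.62, 8.56 and 7.15 at T1, with no overlap. The difference was -2.35 at T1 (SE 0.36, adjusted p = 1.11e-05) and -2.61 at T8.

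All 4 KChIP genes (Kcnip1 to Kcnip4) were lower at T1, as were the 3 cytoplasmic beta subunits Kcnab1 (-1.76), Kcnab2 (-1.21) and Kcnab3 (-1.70). Of the small Kcne subunits, none was called at T1. Kcne3, which modifies several Kv channels, then fell: it measured 7.73, 7.08, 7.28 and 7.12 in T0, 8.22, 7.58, 7.65 and 7.16 at T1 and 6.09, 6.35, 6.26 and 5.98 at T2, so that T2 lay below both earlier groups. Among the silent modifier subunits Kcns3 differed from T0 by -1.76 at T1 and -2.29 at T8.

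The ERG channel Kcnh2, which repolarizes excitable cells, fell from 12.48, 12.78, 12.47 and 12.77 in T0 to 11.03, 10.75, 11.61 and 10.72 at T1, a difference of -1.60 (SE 0.17, adjusted p = 9.35e-08), and of -1.46 at T8. Kcnh1 (EAG1) was lower by 1.24 and Kcnh7 (ERG3) by 1.27 log2 units at T1. Kcnh4 (ELK1) was the exception, with 5.41, 5.38, 5.08 and 5.12 in T0 and 6.30, 6.17, 5.99 and 6.36 at T1 (0.96, SE 0.35, adjusted p = 0.0308), and its T4 and T8 differences of 0.56 and 0.77 did not pass. Kcnq3, a Kv7 channel of the M current, is not among the 88 by name, and the probe described as Kcnq3 differed by -1.66 (SE 0.34) at T1.

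**Figure D3:**
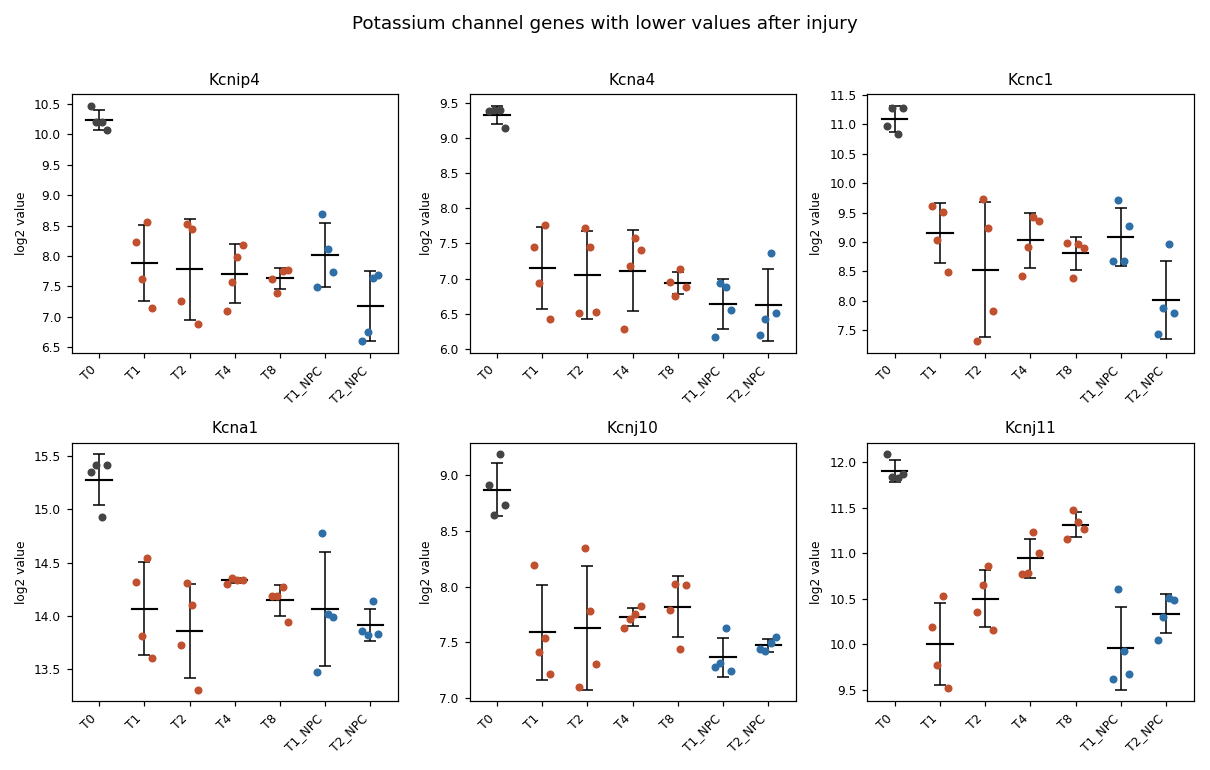
Log2 value of 6 genes that fell after injury on each array, with T0 in grey, injured groups in red and transplanted groups in blue. Horizontal lines are means and bars are SD over 4 arrays, and Kcnj11 climbs back from T1 towards T0 while Kcnip4 and Kcna4 stay near their T1 values.

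Among the inward rectifiers, Kcnj10 (Kir4.1) and its partner Kcnj16 (Kir5.1) both fell. Kcnj10 measured 8.91, 8.64, 9.18 and 8.73 in T0 and 8.20, 7.41, 7.54 and 7.22 at T1, a difference of -1.27 (SE 0.21, adjusted p = 3.35e-05), and was still lower by 1.05 at T8. Kcnj16 measured 11.77, 11.63, 11.88 and 11.92 in T0, 11.01, 10.74, 11.04 and 10.60 at T1 and 11.21, 11.49, 11.39 and 11.28 at T8, or -0.95 at T1 (SE 0.14) and -0.46 at T8 (adjusted p = 0.012). The arrays of both genes at T1 lay below all those of T0. Of 9 astrocyte markers, 5 were lower and 1 higher at T1, and 1 was lower and 1 higher at T8, with Aqp4 at -0.94 and Gfap at 0.86 at T1. Oligodendrocyte markers were lower in 5 of 8 at T1. The part of these markers in the Kir4.1 result was not tested.

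The G-protein-gated channels did not move as 1 group. Kcnj3 (GIRK1) measured 7.37, 7.35, 6.84 and 7.66 in T0 and 5.03, 5.83, 6.04 and 5.28 at T1 (-1.76, SE 0.32, adjusted p = 8.96e-05). Kcnj9 (GIRK3) fell by 1.26 (SE 0.16) and Kcnj6 (GIRK2) by 1.06 log2 units at T1. Kcnj5 (GIRK4) rose instead: it measured 9.27, 9.38, 9.46 and 9.50 in T0 and 10.69, 10.81, 10.41 and 10.95 at T1, entirely above T0, by 1.32 (SE 0.28, adjusted p = 4.67e-04), followed by 1.50, 1.22 and 0.99 at T2, T4 and T8.

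Kcnj9 and Kcnj10 lie next to each other on chromosome 13 and fell together, and their promoters are shown as a counterpart to the Kv1 pair (RefSeq, build GRCr8, chr13:87320294-87320543 on the - strand for Kcnj9 and chr13:87334260-87334509 on the + strand for Kcnj10, with capitals as before).
Kcnj9: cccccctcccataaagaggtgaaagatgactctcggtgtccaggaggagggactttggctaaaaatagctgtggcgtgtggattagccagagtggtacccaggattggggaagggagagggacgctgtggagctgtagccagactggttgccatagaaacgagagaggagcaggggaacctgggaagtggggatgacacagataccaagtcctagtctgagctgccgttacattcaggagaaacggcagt
Kcnj10: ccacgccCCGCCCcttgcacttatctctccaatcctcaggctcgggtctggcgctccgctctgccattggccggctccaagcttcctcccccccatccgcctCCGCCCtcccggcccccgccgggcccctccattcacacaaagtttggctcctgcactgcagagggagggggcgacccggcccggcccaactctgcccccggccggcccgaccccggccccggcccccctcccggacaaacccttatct
Only the Kcnj10 sequence holds GC boxes. Over the array there were 9 such adjacent pairs of potassium channel genes, of which 3 were called in the same direction at T1 (Kcnj9 with Kcnj10, Kcna2 with Kcna10, and Kcna1 with Kcna6) and 3 in opposite directions (Kcna3 with Kcna2, and 2 pairs in which Kcnj15 or Kcnj1 was at background).

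Kcnj11 (Kir6.2, the pore of ATP-sensitive potassium channels) was furthest below T0 at T1, and its group mean was nearer to T0 at each later time. It measured 12.09, 11.84, 11.83 and 11.87 in T0, 10.19, 9.77, 10.53 and 9.52 at T1, and 10.35, 10.65, 10.86 and 10.16 at T2. The T4 arrays measured 10.77, 10.78, 11.23 and 10.9986, and the T8 arrays 11.15, 11.48, 11.35 and 11.26. No injured array reached T0. The difference was -1.90 at T1 (adjusted p = 1.07e-07), -1.40 and -0.96 in the T2 and T4 groups, and -0.59 at T8 (adjusted p = 0.0263). Its regulatory partner Abcc8 (SUR1) was lower at T1 by 0.68 and higher at T8 by 0.80 log2 units, while Kcnj8 (Kir6.1), the form of pericytes and smooth muscle, differed by 0.17 at T1 and -0.01 at T8 without passing.

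Kcnj13 (Kir7.1), known from choroid plexus and other transporting epithelia, rose late. It measured 4.18, 3.48, 3.94 and 5.11 in T0, where it was well above background on 1 of 4 arrays, and 3.90, 5.45, 6.97 and 3.93 at T1, above background on 2. At T2 it measured 7.79, 6.65, 7.15 and 6.33, at T4 8.09, 8.18, 6.57 and 8.98, and at T8 9.40, 9.56, 9.80 and 10.08, on all arrays above background and above every T0 array. The difference from T0 was 0.89 in T1 (not passed), 2.80 in T2 (adjusted p = 0.0011), 3.78 in T4 and 5.53 in T8 (SE 0.65, adjusted p = 3.25e-07).

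Of the two-pore-domain channels, Kcnk6 (TWIK-2) and Kcnk13 (THIK-1, the background channel of microglia) rose. Kcnk6 measured 6.73, 7.13, 7.02 and 7.48 in T0, 9.81, 10.96, 10.15 and 10.68 at T1 and 10.03, 9.51, 9.82 and 9.60 at T8, far apart from T0. Both of its probes rose (3.06 and 3.56 at T1). The gene's rise of 3.31 at T1 (SE 0.29, adjusted p = 3.42e-09, or 9.91-fold) was 2.65 at T8. Kcnk13 measured 11.54, 11.83, 11.73 and 11.67 in T0, 13.39, 13.67, 13.57 and 13.91 at T1 and 13.27, 12.91, 13.12 and 12.75 at T8, again without overlap, and differed by 1.94 at T1 (SE 0.32, adjusted p = 2.35e-05) and 1.32 at T8.

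Kcnk5 (TASK-2, an alkali-activated channel) was near T0 until 8 weeks. It measured 10.21, 9.72, 9.86 and 9.31 in T0, 9.81, 9.96, 10.28 and 8.58 at T1, and 10.77, 11.68, 11.57 and 11.81 at T8, which was above every T0 array (1.68, SE 0.36, adjusted p = 5.72e-04). Kcnk4 (TRAAK), a mechanosensitive channel of the nodes of Ranvier, fell by 1.94 (SE 0.26, adjusted p = 1.46e-06) at T1 and by 1.74 at T8. The mechanosensitive Kcnk2 (TREK-1) measured 12.58, 12.64, 12.57 and 12.71 in T0, 11.78, 11.76, 12.20 and 11.59 at T1, and 12.81, 12.87, 13.02 and 12.76 at T8, so that it was lower by 0.79 at T1 and, at T8, slightly above T0 without passing (0.25). Kcnk15 was above background on all T0 arrays and on no injured array, and was at least 2.37-fold lower at T1 (limma adjusted p = 0.0176) and at least 2.52-fold lower at T8 (adjusted p = 0.00344), where the level of an injured array is taken as the higher of its dimmest signal well above background and the probe's own.

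The calcium-activated channel Kcnn4 (KCa3.1), which is known from T cells, macrophages and microglia, had the largest rise of the 88 genes at T1, T2 and T4. It measured 7.74, 7.37, 7.80 and 7.66 in T0 and 13.07, 12.84, 12.37 and 12.88 at T1. At T2 it measured 11.68, 11.99, 12.19 and 12.41, at T4 11.98, 11.80, 11.74 and 11.95, and at T8 11.90, 12.06, 11.78 and 11.78. Every injured array lay well above T0. The difference from T0 was 5.14 at T1 (SE 0.27, adjusted p = 3.25e-13, or 35.4-fold), 4.42 and 4.22 in the T2 and T4 groups, and 4.24 at T8 (18.8-fold). Beside it, the macrophage marker Cd68 was higher by 7.05 and the microglial marker Aif1 by 1.98 at T1, and their part was not tested.

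The other calcium- and sodium-activated channels fell or did not pass. The BK pore Kcnma1 measured 8.60, 8.47, 8.27 and 8.43 in T0 and 6.94, 6.56, 7.33 and 6.39 at T1 (-1.64, SE 0.31, adjusted p = 1.29e-04), and -1.79 at T8. Its subunit Kcnmb2 was lower by 1.72 log2 units at T1 and by 2.22 at T8, whereas Kcnmb4 differed by 0.35 at T1 without passing. The SK channel Kcnn1 was lower by 0.67 at T1 and 1.26 at T8, and Kcnn2 by 0.93 and 0.74. The sodium-activated Kcnt1 (Slack) fell by 1.51 at T1 and 1.72 at T8. The changes called at T1 and T8 in Kcnn4, Kcnk6, Kcnk13, Kcnj5, Kcnip4 and Kcna4 kept their call when any 1 array of the compared groups was left out and under each other setting except the scanner outputs as deposited. Not every gene followed individually did so. With an array left out, 37 of 39 kept their call at T1 and 37 of 42 at T8. Under each other setting except that one, 28 of 38 kept it at T2 and 30 of 42 at T8. At T1 and T4 not all did either, where these settings include fits with a lone array.

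**Figure D4:**
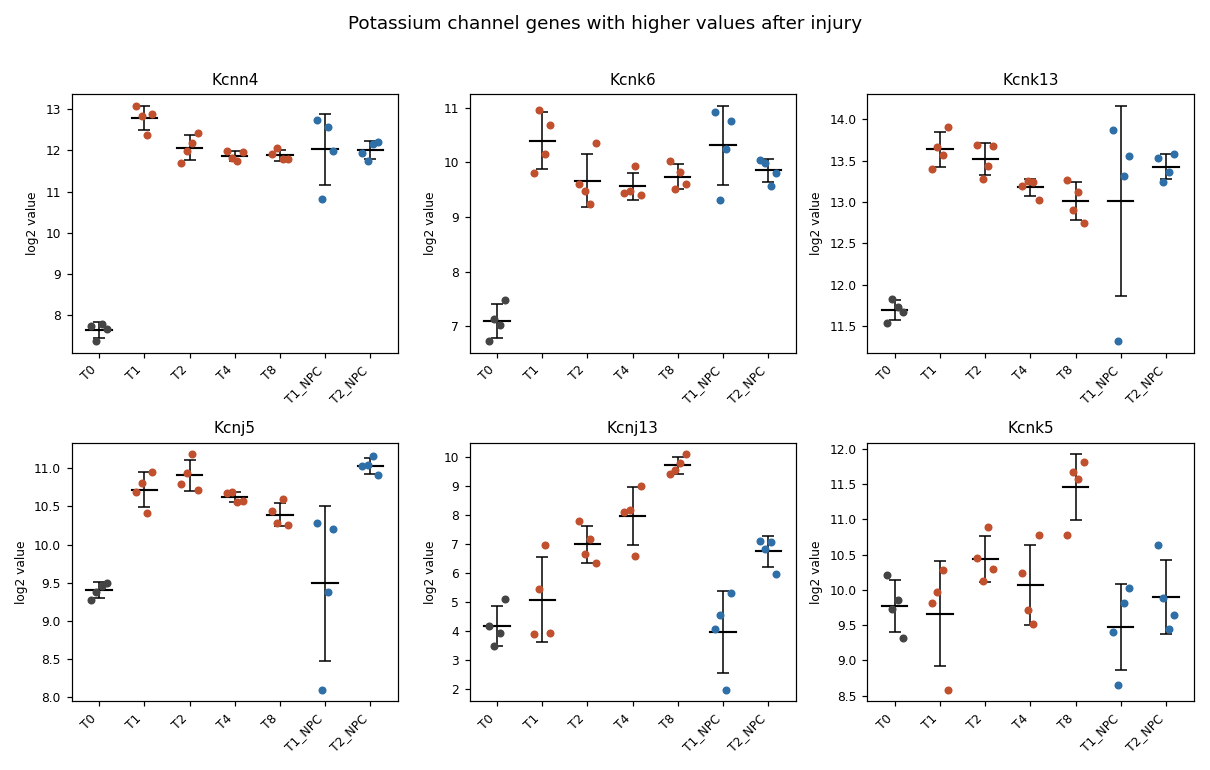
Log2 value of 6 genes that were higher after injury on each array, with T0 in grey, injured groups in red and transplanted groups in blue. Horizontal lines are means and bars are SD over 4 arrays, and Kcnj13 and Kcnk5 reach their highest values at T8 whereas Kcnn4 peaks at T1.

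Of 15 measured partner subunits and scaffolds of potassium channels 10 were lower and 0 higher at T1, against 25.1% and 19.1% of all features, among them the Kv4 partners Dpp10 (-1.90) and Dpp6 (-1.23) and the Kv1-associated Lgi1 (-1.43), and at T8 8 were lower and 2 higher, against 21.5% and 18.2%. Hcn2, one of the hyperpolarization-activated (HCN) channels that carry potassium and sodium, differed by -1.38 at T1. Of 13 potassium pumps and cotransporters 7 were lower and 2 higher at T1, including the neuronal chloride exporter Slc12a5 (-1.91).

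Comparisons between successive times asked whether the channels kept changing after the first week. Between T1 and T2 only Kcne3 was called, lower at T2 by 1.48 on the log2 scale (SE 0.23, adjusted p = 0.0014), against a background of 0.665% lower and 0.815% higher, and 21 of the 88 genes had an unadjusted p under 0.05. Between T2 and T4 limma called 0 genes (background 0.0507% higher and 0.0254% lower, with 9 genes at an unadjusted p under 0.05), and between T4 and T8 again 0 (background 0.0874% and 0.00282%, with 7). Across the whole interval from T1 to T8 10 genes were higher at T8 and 3 lower, against 5.45% and 4.42% of all features.

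Of the 10, Kcnj13 rose most, by 4.64 from T1 to T8 (SE 0.65, adjusted p = 2.64e-05), followed by Kcnk5 (1.80, adjusted p = 0.00157), Kcns2 (1.51), Kcnj11 (1.31, adjusted p = 1.45e-04) and Kcnk2 (1.04, adjusted p = 2.33e-04). The others included Kcna2 (0.85), Kcnj14 (0.73), Kcna10 (0.50) and Kcnj16 (0.49). Kcne3 (-1.05), Kcnn4 (-0.91) and Kcng2 (-0.55) were lower at T8. A further probe described as Kcng2 (TC596451), above background on 4 arrays, differed by -0.24 without passing. Kcns2, a silent modifier subunit, measured 3.95, 4.85, 5.14 and 5.07 at T1, where 3 of 4 arrays were above background, and 7.03, 6.19, 5.60 and 6.21 at T8. Astrocyte markers were higher at T8 than at T1 in 6 of 9 cases (mean level 12.47 to 12.85 at T1 and 13.44 to 13.58 at T8), Schwann cell markers in 4 of 5 and ependymal markers in 2 of 2, and their part was not tested.

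When 1 array was left out at a time, the T8 to T1 count lay between 6 and 9 higher and between 1 and 3 lower. Of these genes, Kcna10 was not followed in each fit, and Kcnj13, Kcnj11, Kcnk2, Kcnk5, Kcnj14 and Kcne3 kept the call in each of these fits. Kcnn4 lost it without T1 replicate 1, 2 or 4 or T8 replicate 1, 3 or 4 (adjusted p of 0.0559 to 0.0858 by limma). Kcng2 lost it without T1 replicate 2 or 4 or T8 replicate 2, 3 or 4 (0.0549 to 0.144), Kcna2 without T1 or T8 replicate 2 or 4 (0.0669 to 0.0901), Kcnj16 without T1 replicate 2 or 4 or T8 replicate 2 or 3 (0.0618 to 0.114), and Kcns2 without T1 or T8 replicate 1 (0.0567 to 0.0576). Most of the 6 genes that kept the call with any array left out lost it under at least 1 other setting. Those settings include fits with a lone T1 array. Kcnk5 differed by 1.56 within scan session 2, where the test was not passed (adjusted p = 0.091), and by 1.94 within session 1, which holds a single T1 array.

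Between transplanted and time-matched injured cords, the share of the 88 genes called was near or below that of all features. In T1_NPC 2 (2.27%) were higher and 4 (4.55%) lower than in T1, against 5.45% and 6.46% of all features. In T2_NPC 5 (5.68%) were higher and 3 (3.41%) lower than in T2, against 4.62% and 4.85%. Against T0, 7 were higher and 46 lower in T1_NPC (background 22.8% and 29.9%), and 6 were higher and 44 lower in T2_NPC (background 21.2% and 26.5%). The difference between both transplantation effects was tested as an interaction, in which limma called 0 genes (background 0.127% and 0.172%, with 10 genes at an unadjusted p under 0.05).

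At 1 week Kcnj5 was lower after transplantation (10.28, 8.10, 9.38 and 10.20 in T1_NPC), by 1.23 on the log2 scale (adjusted p = 0.00635), and all T1_NPC arrays lay below all T1 arrays. Replicate 2, the lowest of these arrays in Kcnj5, was also the lowest in Kcnk13 (11.32 against 13.32 to 13.86 in the others) and in Kcnn4 (10.81 against 11.98 to 12.73). The mean level of microglia and macrophage markers in T1_NPC ranged from 12.03 to 13.04, and its part was not tested. Kcnh2 was lower by 0.55 (adjusted p = 0.0402), and Kcnd1 (Kv4.1) measured 9.75, 10.00, 9.83 and 9.73 in T1_NPC against 9.44, 9.32, 9.14 and 9.34 in T1 (0.52, adjusted p = 0.0159). Kcnk9 (TASK-3) was higher by 0.53 with overlapping arrays. Kcnj15 was also called, but it was at background on every array. Kcnk9 lost its call without T1 replicate 2, 3 or 4 or T1_NPC replicate 2, 3 or 4, Kcnh2 without T1 replicate 1 or 3 or T1_NPC replicate 1, 2 or 3, and Kcnd1 without T1 replicate 3 or T1_NPC replicate 2 (adjusted p of 0.0518 to 0.169 over these fits). With slide as a random block, Kcnd1 (adjusted p = 0.0509 by limma), Kcnk9 (0.0691) and Kcnh2 (0.113) were not called, and with only the compared groups in the fit neither these genes (0.0638 to 0.205) nor Kcnj5 (0.189) was called.

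At 2 weeks Kcna6 (Kv1.6, a neuronal Kv1 channel) measured 11.08, 11.09, 11.10 and 10.95 in T2_NPC against 10.37, 10.75, 10.32 and 10.31 in T2, higher by 0.62 (SE 0.12, adjusted p = 0.00257), and it kept this call without any 1 array. Kcnt2 (Slick) was higher by 0.86, Kcng1 by 0.76 with overlapping arrays, and Kcnj14 (Kir2.4) by 0.55. Kcnd2 was lower by 0.82 (adjusted p = 0.0298) and Kcnj9 by 0.57 (adjusted p = 0.0299). Kcnq1 was called higher, but it was above background on 1 of the 28 arrays. Among the cell markers, 2 of 8 oligodendrocyte markers were higher in T2_NPC than in T2, and their part was not tested. Kcng1 lost its call in 6 of the 8 fits that left out an array, namely those without T2 or T2_NPC replicate 1 or 4, T2 replicate 2 or T2_NPC replicate 3. Kcnd2 lost it without T2 replicate 2 or 3 or T2_NPC replicate 1 or 2, Kcnj9 without T2 replicate 2 or T2_NPC replicate 1, 2 or 4, Kcnj14 without T2 replicate 1 or T2_NPC replicate 2 or 4, Kcnt2 without T2 replicate 1 or T2_NPC replicate 4, and Kcnq1 without T2_NPC replicate 1 or 2 (adjusted p of 0.0536 to 0.132 over these fits). With slide as a random block none of these 6 genes was called (0.0671 to 0.0989 by limma). With only the compared groups Kcnd2, Kcng1, Kcnj9 and Kcnt2 were not called (0.0748 to 0.193), whereas Kcna6 was called in both fits (0.0157 and 0.0291). The T2_NPC arrays filled a slide of their own, so neither fit can separate transplantation from slide or session in Kcna6.

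**Figure D5:**
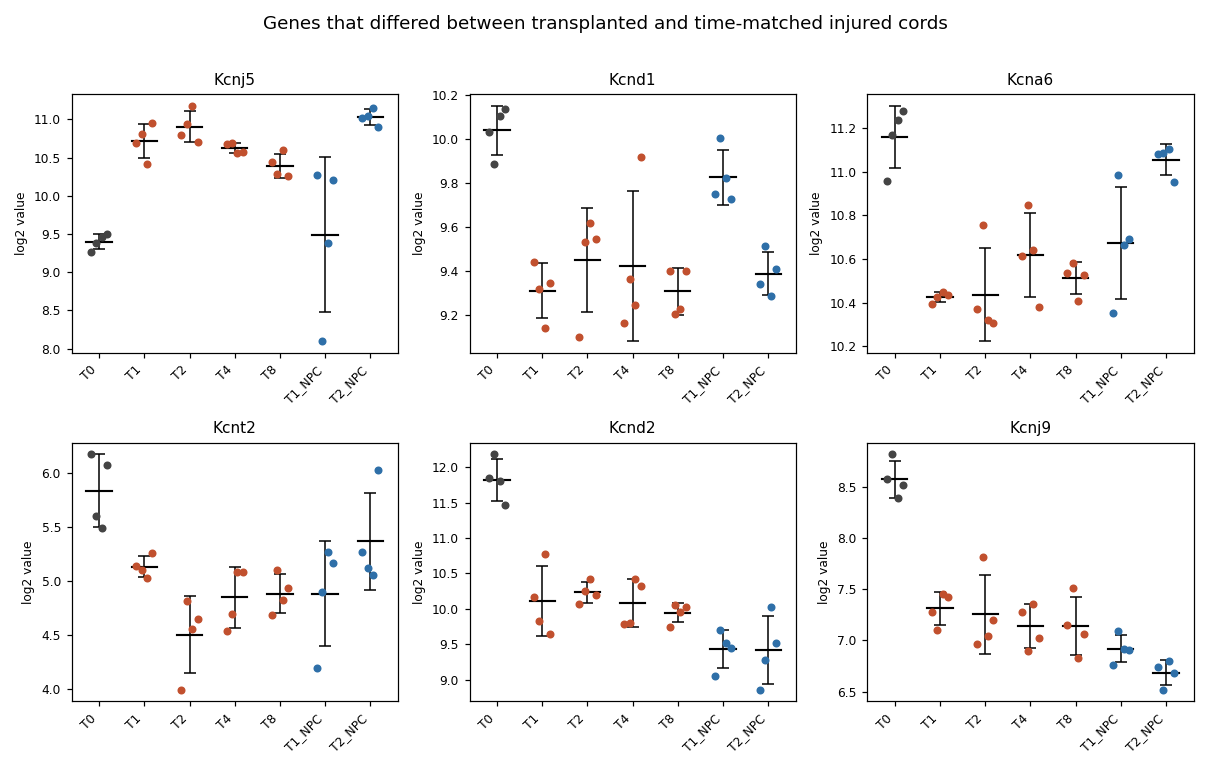
Log2 value on each array of 6 genes called between transplanted and time-matched injured cords, Kcnj5 and Kcnd1 at 1 week and Kcna6, Kcnt2, Kcnd2 and Kcnj9 at 2 weeks, with T0 in grey, injured groups in red and transplanted groups in blue. Lines are means and bars SD over 4 arrays, and all T1_NPC arrays lie below all T1 arrays in Kcnj5 and above them in Kcnd1.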

How the data were processed

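Cyanine 3-labelled RNA of 28 cords was hybridized to 1-colour Agilent rat arrays. The deposited table holds log2 values that, by the study's methods, the authors background-corrected and quantile normalized, and these were the main data. The deposited scanner outputs hold intensity (processed, median and background signals) per spot and were used for background flags, slide, scan session and alternatives, each output being assigned to the column of the same rank order (Spearman 1, against at most 0.993 for any other). Depth has no equivalent on arrays, where the number of arrays limits precision.

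Spots were averaged per probe and probes per gene name over 43379 non-control spots. A gene's name is that of the array design, and 82 of the 88 genes matched RefSeq by accession, 5 by symbol and 1 by neither. One limma fit (version 3.58.1, R 4.3.3) over 35469 features gave 13 comparisons with a mean per group, an adjusted p under 0.05 being called. Replicate numbers did not pair the arrays (mean correlation of deviations -0.0033 for equal numbers). A gene was at background in a group where the scanner flagged it on none of the 4 arrays, and a floor replaced the fold. Named genes were, per comparison with T0, the largest 4 rises and 8 falls among called genes, the largest 4 each way elsewhere, genes with a known place in cord cells, and members of small counts. A few genes are included in the counts but are not reported here individually. The genes, families and marker lists were chosen with earlier results of these data known. Promoters came from RefSeq (GRCr8). The scripts were tested on simulated data. Alternatives were other scalings, background correction, probe choice, samples in the fit, slide, session and replicate blocks, and left-out arrays. The normexp alternative (offset 50) used median signals because not every output holds mean signals.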

Additional observations from a re-analysis of the deposited data

Results flagged for a closer look

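Single arrays stood apart from the other 3 of their group in 19 of 399 gene and group combinations tested (57 genes, 4.76%), where chance gives about 1 in 20. The log2 values that stood apart were, in T0, Kcna1 at 14.9 (replicate 3), Kcna4 at 9.13 and Kcns2 at 6.15 (both replicate 4), and Kcnj11 at 12.1 and Kcnmb2 at 7.49 (both replicate 1). At T1 they were Kcnk15 at 1.79 (replicate 1, at background) and Kcnt1 at 7.73 (replicate 3). At T2 they were Kcnd1 at 9.10 and Kcnj14 at 10.6 (both replicate 1), Kcna6 at 10.8 (replicate 2) and Kcnj16 at 10.8 (replicate 4). At T4 Kcnk4 at 8.07 and Kcnk6 at 9.94 stood apart, both in replicate 3. At T8 they were Kcnc1 at 8.39 (replicate 2), Kcne1 at 1.81 (replicate 4, at background) and Kcnn2 at 7.24 (replicate 4). In T2_NPC they were Kcna1 at 14.1 (replicate 3), Kcna6 at 10.95 (replicate 4) and Kcne1 at 1.39 (replicate 2, at background).

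The injury effect differed between times in 13 genes by the test of T8 against T1. Of the 88 genes 11.4% were higher at T8 and 3.41% lower, against 5.45% and 4.42% of all features, so the share of lower genes was not above the background. The log2 differences included 4.64 in Kcnj13, 1.80 in Kcnk5, 1.51 in Kcns2, 1.31 in Kcnj11, 1.04 in Kcnk2, 0.85 in Kcna2, 0.73 in Kcnj14, 0.50 in Kcna10, 0.49 in Kcnj16, -0.55 in Kcng2, -0.91 in Kcnn4 and -1.05 in Kcne3. Kcne3 also differed between T2 and T1, by -1.48.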

How the results depend on the processing

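Counts of called genes among the 88 are given as higher and lower. With the scanner outputs as deposited they were 0 and 0 in every comparison by limma (0 to 28 genes at an unadjusted p under 0.05) except T2_NPC against T2 (0 and 1) and T2_NPC against T0 (1 and 1). The undisputed arrays and scan session 1 share the same 8 time-course arrays, with 1 array each for T1 and T4, so that they are a single alternative and their tests of T1 and T4 assume that a lone array varies like the other groups. There the count lower at T1 was 33 (undisputed) and 32 (session 1), and that at T4 was 27 in session 1. The T4 count was 28 when a 2-fold change was required. For T2 against T1 the higher count was 1 under 75th-percentile scaling, slide as a fixed or random block, session as a block and within session 2, and the lower count was 3 with slide or session as a fixed block, 2 within session 2 and 0 in the undisputed arrays and session 1 (10 and 16 at an unadjusted p under 0.05). For T4 against T2, 1 gene was higher with slide or session as a fixed block and within session 2, and 1 lower with session as a block. For T8 against T4, 1 was higher under normexp. For T8 against T1 the higher count was 3 and 2 in the undisputed arrays and session 1, again with the lone T1 array, 6 within session 2 and 5 at 2-fold, and the lower count was 6 with slide fixed, 5 with slide random, 7 with session fixed and 1 at 2-fold. For T1_NPC against T1 the higher count was 7 under 75th-percentile scaling and 0 with only the compared groups in the fit, slide random or 2-fold (14, 15 and 17 genes at an unadjusted p under 0.05), and the lower count was 2 with only the compared groups and at 2-fold. For T2_NPC against T2 the higher count was 3 under normexp and with only the compared groups, and 1 with slide random and at 2-fold, and the lower count was 10 in the undisputed arrays and 1 with only the compared groups, slide random and at 2-fold. T1_NPC against T0 gave 4 higher with only the compared groups, and the interaction 1 lower under 75th-percentile scaling. The causes were not tested.

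Leaving out 1 array at a time gave 6 to 7 higher and 47 to 52 lower after 1 week, 6 to 8 and 48 to 52 after 2 weeks, 6 to 7 and 42 to 46 after 4 weeks, 7 to 8 and 43 to 46 after 8 weeks, 0 to 1 and 1 to 2 for T2 against T1, 6 to 9 and 1 to 3 for T8 against T1, 0 to 4 and 3 to 6 for T1_NPC against T1, 2 to 6 and 1 to 5 for T2_NPC against T2, 6 to 8 and 42 to 52 for T1_NPC against T0, and 6 and 42 to 43 for T2_NPC against T0. The other comparisons stayed at 0.

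Replicate numbers did not pair the arrays (84 pairs of equal number, correlations -0.34 to 0.30), and with the replicate block the counts were 7 higher and 52 lower after 1 week, 7 and 51 after 2 weeks, 6 and 44 after 4 weeks, and 10 and 48 after 8 weeks. Scaling to the 75th percentile moved the median of all features from -0.10 to -0.28 at T1 and from 0.00 to 0.13 for T2 against T1, and that of the 88 genes at T1 from -0.86 to -0.99.

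Among genes reported individually, directions turned in these cases. Kcng2 in T1_NPC against T0 was not called in the main fit, and with its brightest probe it was called at -0.38. The genes that follow were called in the main fit. With scanner outputs as deposited, Kcnj14 was 0.12 and Kcnk2 0.027 at T1, Kcnk15 0.25 and Kcnn1 0.088 at T2, Kcng2 0.25 and Kcnn3 0.24 at T4, and Kcnn4 0.76 for T8 against T1. In T1_NPC against T1 Kcnd1 was -0.43, Kcnj15 0.46 (at background on every array, so that this is no fold), Kcnj5 0.29 and Kcnk9 -0.28, and against T0 Kcnj14 was 0.014, Kcnj16 0.015, Kcnj8 -0.093, Kcnk2 0.30, Kcnmb4 -0.11 and Kcnn2 0.24. Genes near background are limited by signal, with 5 of 88 above it on no array.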
